A study of Homo sapiens with 12 samples.

Results

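Macroautophagy encloses cytoplasm in a double membrane and delivers it to lysosomes, and 35 genes of this pathway, its core machinery, 3 cargo receptors and the transcription factor TFEB, were followed in glioblastoma cells that had survived temozolomide (TMZ). The genes were taken by symbol and matched by Ensembl identifier, and all 35 were found among the 58174 rows of the deposited gene tables. Levels are in TPM, the share of a library's transcripts after division by transcript length, so that genes can be compared within a library. A gene was tested where it reached 1 TPM in at least 3 of the libraries fitted, which 34 of the 35 did in each cell line, and ULK2 did not. ULK2, a partner kinase of ULK1, was at 0 TPM in all U87 libraries. It lay between 0.402 and 0.705 TPM in U118 sensitive libraries and between 0 and 0.0234 TPM in U118 resistant libraries. The counts over 34 genes below leave it out.

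As background, the ULK kinase complex starts the process under the control of nutrient-sensing kinases, and a class III phosphatidylinositol 3-kinase complex then marks the forming membrane with phosphatidylinositol 3-phosphate. Linked conjugation systems attach the small ubiquitin-like ATG8 proteins (the LC3 and GABARAP families) to lipid on that membrane, where receptors such as p62 bind both ATG8 proteins and ubiquitinated cargo. TMZ is known to raise the lipid-bound form of LC3 in glioma cells, a protein readout that transcript levels do not measure.

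The cells were the established human glioblastoma lines U-87 MG (U87) and U-118 MG (U118). The labels call the groups sensitive and resistant; the study's methods describe control cells and the aggregations formed under TMZ, an alkylating drug, from cells sorted as CD133-CD15- and kept with serum and BMP2. The resistant cells had been under continuous TMZ at 50 µM and the sensitive cells of the same line had not. In the paper's results, surviving cells did not divide under TMZ, and a subset later re-entered the cell cycle and formed the aggregations. Each of the 4 groups had 3 libraries, and the labels do not say whether these 12 came from separate cultures, so p-values measure the spread between these libraries, which may be technical. Sequencing depth is unknown, because TPM holds no counts.

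Some properties of the libraries bear on every value below. The mitochondrial genome's transcripts held 12.9% to 16.9% of U87 sensitive and 22.2% to 23.7% of U87 resistant libraries, and 7.42% to 19.7% of U118 sensitive and 13.2% to 29.9% of U118 resistant libraries. Over all tested genes the median difference, resistant minus sensitive, was -0.245 in U87 and -0.522 in U118 on the log2 scale, and with libraries rescaled by their median ratios it was -4.71e-05 and -0.0617. U118 resistant replicate 1 stood apart from its partners in genes at 1 TPM or more, with 15193 against 13270 and 13545. It was the highest of its group for 26 of the 35 genes, and U118 resistant replicate 2 was the lowest for 26. These counts of 26 have no share of all genes to be read beside. The U118 resistant libraries went against their label in their overall profile: across 18525 genes their Spearman's rho was 0.902 to 0.914 with the U87 sensitive libraries and 0.821 to 0.845 with the U118 sensitive libraries. With the U87 resistant libraries their rho was 0.912 to 0.918. Of 108 genes at 10 TPM or more in all U118 sensitive and under 0.1 TPM in all U87 sensitive libraries, 63 were under 0.1 TPM in all U118 resistant libraries, and of 44 genes with the reverse pattern, 37 were at 1 TPM or more in all of them. Every U118 comparison below rests on these libraries, and no comparison within U118 could be made without them. Of the glioma markers VIM, CD44 and NES were expressed in all groups, while SOX2, GFAP and S100B were under 1 TPM in every library. Among 12 markers of other cell types, summed levels were 1.47 to 3.01 TPM in U87, 2.14 to 2.37 TPM in U118 sensitive and 11 to 14.2 TPM in U118 resistant libraries, where the rise lay mostly in SYP at 8.43 to 11.8 TPM and the leukocyte marker PTPRC stayed under 0.1 TPM. The part that these differences had in the results was not tested.

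Resistant and sensitive cells were compared within each line, to ask whether autophagy genes differed between TMZ-treated survivors and untreated cells. In U118, OPTN (optineurin), TFEB and GABARAPL2 were called higher and UVRAG, PIK3R4, ATG4C and RB1CC1 lower, a call being an adjusted p under 0.05 in limma with a log2 fold change of at least 1 on the log2(TPM + 1) scale, which understates changes of low genes. These 3 higher and 4 lower genes of 34 stood beside 8.64% of all 15527 genes tested in U118 called higher and 26.6% called lower. In U87 none of the 34 genes was called in either direction by limma, beside 3.03% of 13845 genes called higher and 7.79% lower, and none of them passed an unadjusted p under 0.05 with that fold. Without the fold threshold, 3 of the 34 rose and 6 fell in U87 (9.43% and 29.7% of all genes), and 6 rose and 7 fell in U118 (12.2% and 39.1%). The TPM of the 3 resistant and 3 sensitive libraries did not overlap for 5 higher and 7 lower genes in U87 (13.6% and 39.8% of all genes tested), and for 9 higher and 11 lower genes in U118 (15.7% and 42.9%).

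Several of these counts turned on the scaling or on 1 library. Under median-ratio scaling, U118 had 7 genes called higher, with ATG13, GABARAPL1, SQSTM1 and WIPI1 added, beside 14.7% of all genes, and 1 called lower, UVRAG, beside 13.7%. Without the fold threshold it had 13 higher and 4 lower there, beside 23.7% and 25.6%. In U87 that scaling again gave 0 calls in either direction, beside 4.97% called higher and 3.81% lower, and the count without the fold threshold became 6 higher and 2 lower, beside 16.7% and 16.5%. Without U118 resistant replicate 1 the U118 calls became 2 higher and 7 lower, and without U118 resistant replicate 2 they became 5 higher and 4 lower. The share of all genes called was not counted in these subsets, so these counts have none to be read beside. Without U87 sensitive replicate 1, ATG3 and PIK3R4 passed the call as lower in U87. The median log2 fold change of the 34 genes was -0.0459 in U87 and -0.203 in U118. These medians lay 0.199 and 0.319 above the median of all genes, and 0.211 and 0.369 above it under median-ratio scaling. With no filter on low values they lay at -0.00649 and -0.163 from it, with ULK2 then included in U118. Both cell lines had 15 of the 34 genes above 0 and 19 below, and median-ratio scaling gave 25 above in U87 and 23 above in U118. In cells measured in bulk, fewer cells of a type and less RNA per cell cannot be told apart.

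**Figure D1:**
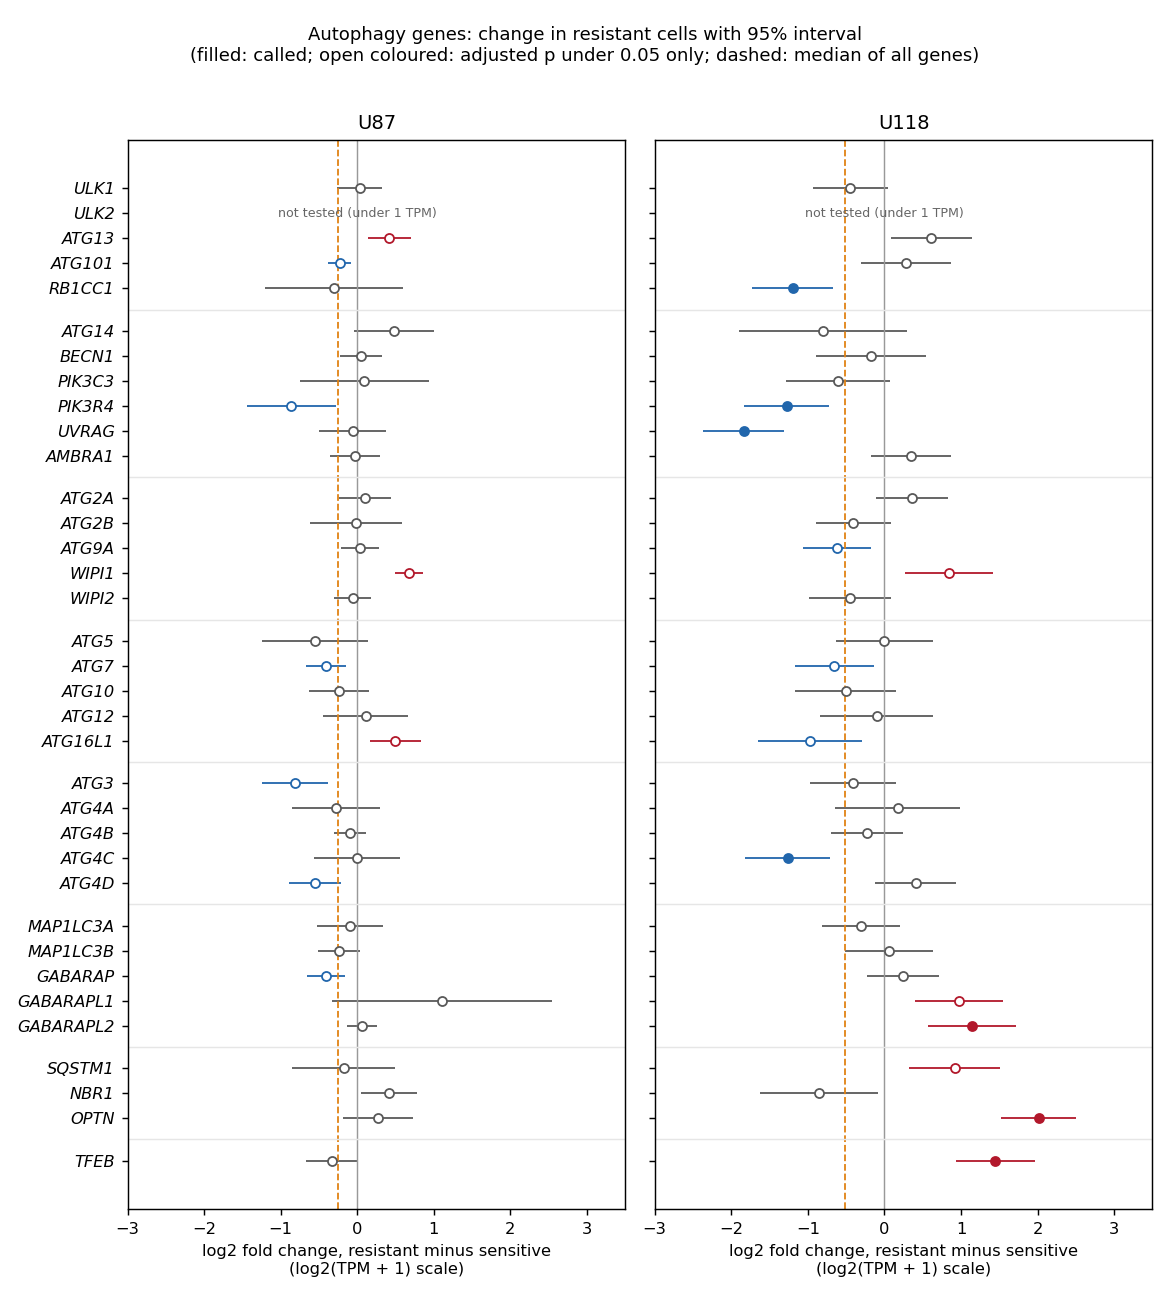
Log2 fold change, resistant minus sensitive, on the log2(TPM + 1) scale (x axis) for each of the 35 genes (y axis, grouped by role) in U87 (left) and U118 (right), with 95% intervals from limma. Filled points passed the call, open coloured points an adjusted p under 0.05 alone, and the dashed line is the median of all genes, at -0.245 in U87 and -0.522 in U118; the filled points lie in U118 alone, from UVRAG at -1.84 to OPTN at 2.01.

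Of the 3 cargo receptors, OPTN had the largest rise of the 34 genes in U118. OPTN (chr10:13099449-13138308 on GRCh38), a receptor for ubiquitinated mitochondria and bacteria, was at 15.5, 16.7 and 16.5 TPM in U118 sensitive and 83.1, 57.6 and 67.4 TPM in U118 resistant replicates 1, 2 and 3. All resistant libraries were above all sensitive ones, 69.4 ± 12.9 against 16.3 ± 0.648 TPM (SD, n = 3 each), or 4.27-fold, with a log2 fold change of 2.01 ± 0.22 (SE) and an adjusted p of 9.12e-05. The call stood without any 1 of the 6 libraries (1.88 to 2.14). In U87, OPTN was at 25.9, 38.9 and 37.8 TPM in sensitive and 48.9, 34.5 and 40.6 TPM in resistant libraries. These U87 groups overlapped, with a log2 fold change of 0.27 ± 0.19 and an adjusted p of 0.302, but with median ratios OPTN was past the test as higher in U87 too (0.55, adjusted p = 0.0305).

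SQSTM1 (chr5:179806398-179838078) encodes p62, the receptor most used as a marker of autophagic flux, and was the most abundant of the 35 transcripts in every library. It was at 779.8, 481 and 440.5 TPM in U118 sensitive and 969, 1058 and 1093 TPM in U118 resistant libraries, with no overlap. The rise was 1.83-fold, from 567 ± 185 to 1040.0 ± 63.6 TPM, with a log2 fold change of 0.92 ± 0.26 and an adjusted p of 0.0173. That p was 0.0795 without sensitive replicate 2 and 0.0676 without resistant replicate 3. In U87 it was at 1208, 1081 and 1132 TPM in sensitive libraries. U87 resistant replicate 1 was far above its partners at 1672 TPM against 759.6 and 801 TPM. With it the log2 fold change was -0.18 ± 0.29 (adjusted p = 0.657), and without it -0.55, with an adjusted p of 0.00586.

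NBR1, a receptor related to p62 that also binds ubiquitin, was split among the U118 resistant libraries. It was at 62.0, 64.7 and 58.3 TPM in U118 sensitive libraries and at 61.0, 22.5 and 27.6 TPM in resistant libraries, so that resistant replicate 1 lay within the sensitive range and the other two far below it. The log2 fold change was -0.85 ± 0.34 (adjusted p = 0.062), and -1.27 without resistant replicate 1 (adjusted p = 0.000378). In U87 it was at 18.9, 26.1 and 20.9 TPM in sensitive and 33.8, 26.4 and 28.0 TPM in resistant libraries, with no overlap and a log2 fold change of 0.41 (adjusted p = 0.0749). It was past the test in U87 with median ratios (0.68, adjusted p = 0.00538), without mitochondrially encoded genes (0.55, adjusted p = 0.0237) and without sensitive replicate 2 (0.53, adjusted p = 0.0223). A ratio of 2 genes within a library does not depend on the scaling, and these ratios were chosen after the values were seen. The ratio of OPTN to NBR1 was 0.251 to 0.283 in U118 sensitive and 1.36 to 2.56 in U118 resistant libraries, and 1.37 to 1.81 and 1.30 to 1.45 in U87.

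**Figure D2:**
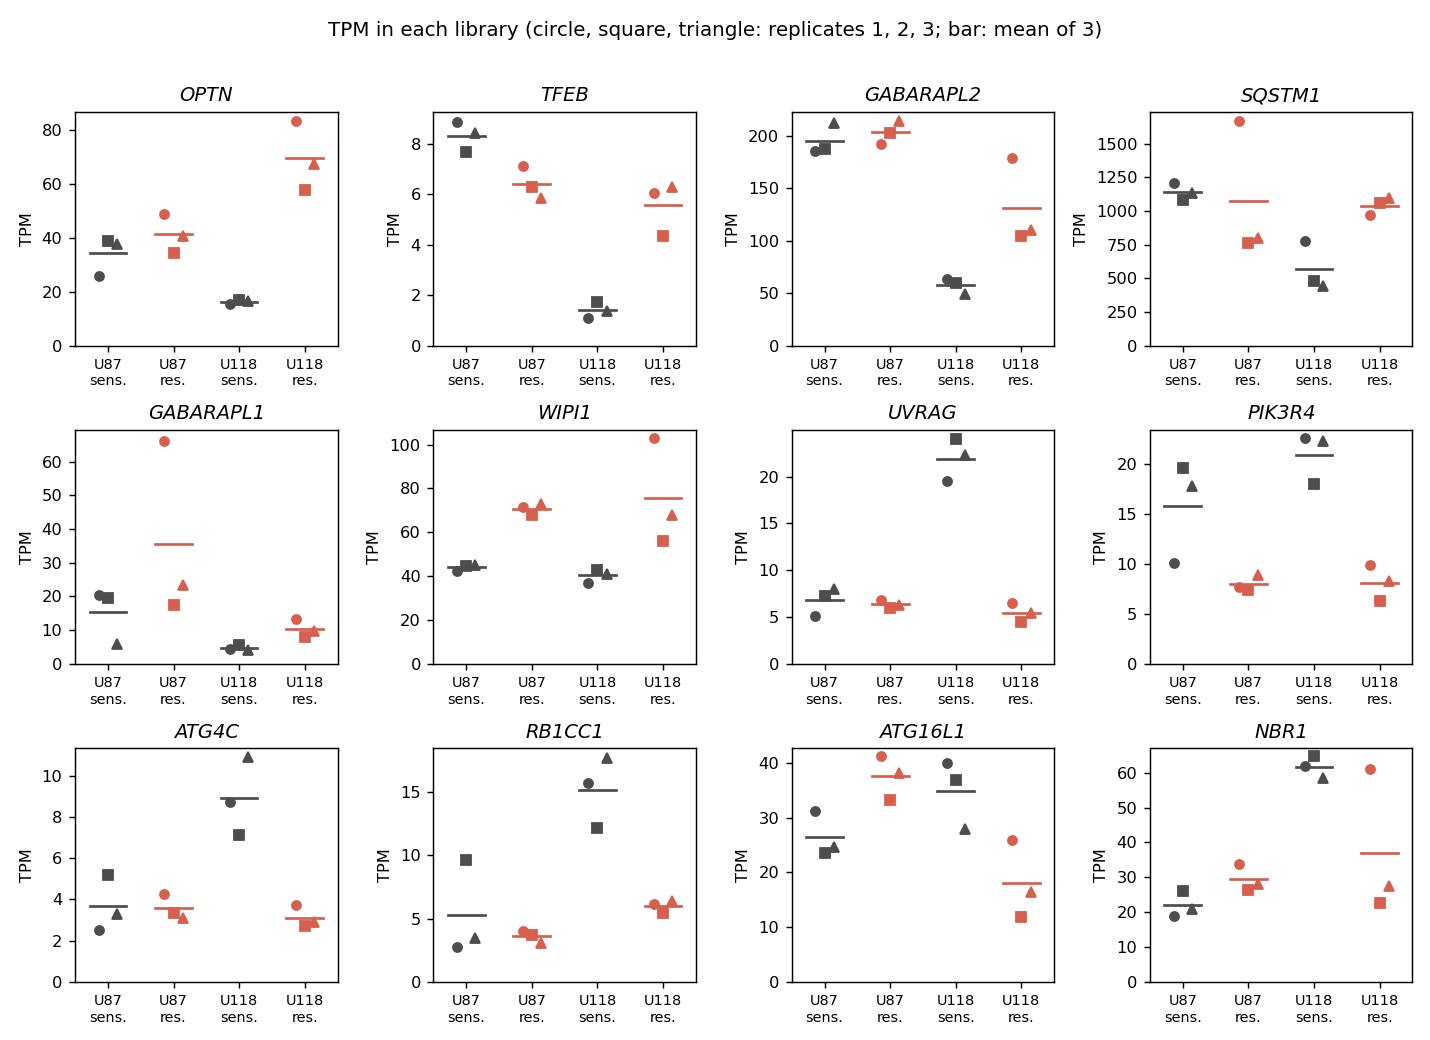
TPM (y axis, from 0) of 12 genes in each of the 12 libraries, by group (x axis), with replicates 1, 2 and 3 as circle, square and triangle and a bar at the mean of 3. OPTN, TFEB, GABARAPL2, SQSTM1, GABARAPL1 and WIPI1 lay higher and UVRAG, PIK3R4, ATG4C, RB1CC1 and ATG16L1 lower in all U118 resistant than in all U118 sensitive libraries, while NBR1 in U118 resistant replicate 1 was at 61.0 TPM, among the sensitive values.

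In the ATG8 family, whose proteins are conjugated to the autophagosome membrane, GABARAPL2 and GABARAPL1 rose in U118 and GABARAP fell in U87. GABARAPL2 (GATE-16; chr16:75566351-75577881) was at 63.4, 59.7 and 49.0 TPM in U118 sensitive and 178, 104 and 110.0 TPM in U118 resistant libraries. The groups did not overlap, and the means of 57.4 ± 7.44 and 131 ± 41.3 TPM differed 2.28-fold, with a log2 fold change of 1.14 ± 0.25 and an adjusted p of 0.00562. Resistant replicate 1 was the highest, and without it the log2 fold change was 0.90 with an adjusted p of 0.00229, under the fold of the call. In U87 it was at 185, 187 and 212 TPM in sensitive and 193, 203 and 214 TPM in resistant libraries, groups that overlapped, at a log2 fold change of 0.06 ± 0.08.

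GABARAPL1, a close relative of GABARAP and a known FOXO target, rose in U118 from 4.69 ± 0.674 to 10.3 ± 2.69 TPM, 2.20-fold, with a log2 fold change of 0.97 ± 0.26 and an adjusted p of 0.0123, which was 0.0566 without sensitive replicate 1. Its U87 levels were scattered. They were 20.5, 19.4 and 5.84 TPM in sensitive and 66.2, 17.4 and 23.3 TPM in resistant libraries, with a log2 fold change of 1.11 ± 0.60, an interval from -0.33 to 2.54 and an adjusted p of 0.19. U87 resistant replicate 1, the library high in SQSTM1, was also the one high in GABARAPL1.

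GABARAP, the family's founding member, fell in U87. It was at 178, 195 and 219 TPM in U87 sensitive and 133, 156 and 157 TPM in U87 resistant libraries, a log2 fold change of -0.41 ± 0.11 with an adjusted p of 0.0216. Rescaling by median ratios ended this (-0.13, adjusted p = 0.49), and so did leaving out mitochondrially encoded genes (-0.27, adjusted p = 0.105). The adjusted p was 0.0693 without U87 sensitive replicate 3 and 0.0658 without U87 resistant replicate 1. In U118 it was at 215, 206 and 212 TPM in sensitive and 204, 285 and 266 TPM in resistant libraries (0.24 ± 0.21, adjusted p = 0.354).

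MAP1LC3B encodes LC3B, the ATG8 protein followed in most autophagy assays. Its transcript was at 32.6, 37.5 and 39.8 TPM in U87 sensitive and 30.3, 28.5 and 33.9 TPM in U87 resistant libraries, and at 74.4, 62.7 and 52.4 TPM in U118 sensitive and 89.1, 52.2 and 59.3 TPM in U118 resistant libraries. Sensitive and resistant groups overlapped in both lines, with log2 fold changes of -0.24 ± 0.12 (adjusted p = 0.145) and 0.06 ± 0.26 (adjusted p = 0.861). With median-ratio scaling MAP1LC3B was past the test as higher in U118 (0.57, adjusted p = 0.0248). MAP1LC3A, its neuronal and epithelial relative, was low in all groups, at means of 5.58 to 11 TPM, with adjusted p-values of 0.725 in U87 and 0.267 in U118. MAP1LC3B has a near-identical copy, MAP1LC3B2, and GABARAPL1 has GABARAPL3, and how shared reads were divided is not given in the sources used here; MAP1LC3B2 was at means of 1.03 to 1.76 TPM.

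Within each library the 5 ATG8 transcripts can be set against each other free of the scaling. GABARAPL2 made up 15.1% to 17.5% of their summed TPM in U118 sensitive libraries and 36.4%, 22.9% and 24.4% in U118 resistant replicates 1, 2 and 3, all above the sensitive ones. In U87 it made up 41.5% to 43.5% in sensitive and 44.7% to 49.0% in resistant libraries. GABARAP's share of the U87 libraries was 41.8% to 44.9% in sensitive and 30.8% to 37.7% in resistant cells, without overlap. MAP1LC3B took 16.1% to 20.5% of the sum in U118 sensitive libraries against 7.66% to 8.32% in U87 sensitive libraries. The summed TPM of the family was 325 to 363 in U118 sensitive and 451 to 490 in U118 resistant libraries, and 426 to 488 and 414 to 441 in U87.

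**Figure D3:**
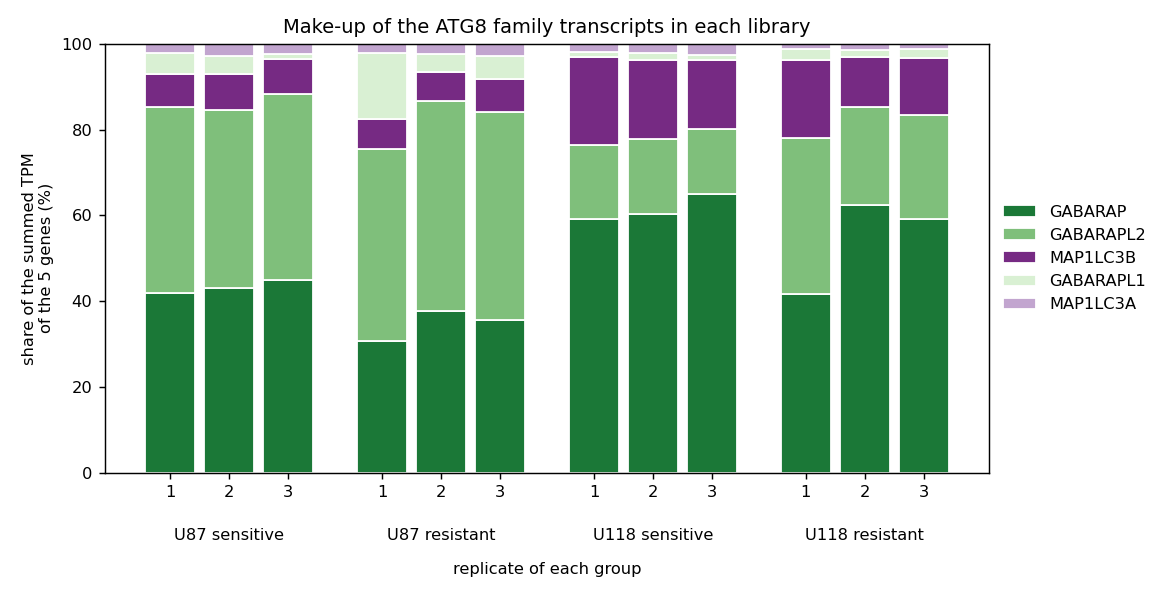
Share of the summed TPM of the 5 ATG8 family genes (y axis, %, stacked to 100) held by each gene in each of the 12 libraries (x axis, replicates by group). The GABARAPL2 band widens from 15.1% to 17.5% in U118 sensitive libraries to 22.9% to 36.4% in U118 resistant ones, and in U87 the GABARAP band narrows from 41.8% to 44.9% to 30.8% to 37.7%.

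TFEB (chr6:41683978-41736259), the transcription factor that drives lysosomal and autophagy genes when it enters the nucleus, was the lowest of the 34 genes in U118 sensitive cells. It was at 1.08, 1.71 and 1.39 TPM there and at 6.04, 4.33 and 6.29 TPM in U118 resistant libraries, without overlap. The means of 1.39 ± 0.316 and 5.55 ± 1.07 TPM differed 3.98-fold, with a log2 fold change of 1.45 ± 0.23 and an adjusted p of 0.000899. It was called without any 1 of the 6 libraries (1.35 to 1.59). In U87, TFEB was at 8.86, 7.66 and 8.43 TPM in sensitive and 7.13, 6.28 and 5.84 TPM in resistant libraries, lower without overlap but not past the test (-0.33 ± 0.14, adjusted p = 0.104).

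Among the genes of the class III phosphatidylinositol 3-kinase complexes, UVRAG and PIK3R4 fell in U118. UVRAG (chr11:75815167-76143195), the subunit that replaces ATG14 in the endosomal form of the complex, was at 19.5, 24.0 and 22.3 TPM in U118 sensitive and 6.50, 4.41 and 5.40 TPM in U118 resistant libraries. This was the largest fall of the 34 genes, to 0.248 of the sensitive mean, with a log2 fold change of -1.84 ± 0.23 and an adjusted p of 0.000262. It stood under median-ratio scaling at -1.37 (adjusted p = 0.000335). In U87 it was at 5.05, 7.27 and 7.99 TPM in sensitive and 6.79, 5.95 and 6.33 TPM in resistant libraries, groups that overlapped (adjusted p = 0.824).

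PIK3R4, the VPS15 scaffold of the kinase, was lower in both lines. It was at 22.5, 18.0 and 22.3 TPM in U118 sensitive and 9.83, 6.26 and 8.27 TPM in U118 resistant libraries, with a log2 fold change of -1.28 ± 0.24 and an adjusted p of 0.00253, and -0.80 under median-ratio scaling (adjusted p = 0.0069). In U87 it was at 10.1, 19.6 and 17.8 TPM in sensitive and 7.65, 7.35 and 8.88 TPM in resistant libraries, again without overlap, with a log2 fold change of -0.86 ± 0.25 and an adjusted p of 0.0303. That U87 value lost its threshold without U87 sensitive replicates 2 or 3, or without any U87 resistant replicate (adjusted p 0.0548 to 0.102), and was -1.14 without U87 sensitive replicate 1.

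BECN1 (Beclin 1), which holds the complex together, lay between 55.7 and 74.5 TPM in all libraries but those of U118 resistant cells. It was at 58.5, 69.1 and 60.9 TPM in U87 sensitive and 74.5, 61.8 and 59.0 TPM in U87 resistant libraries, and at 59.9, 67.2 and 55.7 TPM in U118 sensitive and 91.1, 45.8 and 37.0 TPM in U118 resistant libraries. The groups overlapped in both lines (adjusted p = 0.779 and 0.666), and without U118 resistant replicate 1 the U118 log2 fold change went from -0.17 to -0.55, with an adjusted p of 0.0212. PIK3C3, the catalytic VPS34 subunit, had mean levels of 4.88 ± 3.12 and 4.82 ± 1.13 TPM in U87 and 11.5 ± 3.04 and 7.36 ± 2.62 TPM in U118, sensitive and resistant. It did not pass the test as deposited in either line, and in U118 it was at -0.84 without resistant replicate 1 (adjusted p = 0.0152). ATG14, which directs the complex to the forming autophagosome, was at 5.36 ± 1.75 and 7.65 ± 0.261 TPM in U87 and at 14.3 ± 6.30 and 8.43 ± 6.36 TPM in U118, where its sensitive libraries ranged from 7.35 to 19.6 TPM. The U118 value of ATG14 was -0.80 ± 0.48 (adjusted p = 0.19), and -1.32 without resistant replicate 1 (adjusted p = 0.0148). The U87 value of ATG14 was 0.48 (adjusted p = 0.125), and past the test with median ratios (0.72, adjusted p = 0.0158) and without U87 sensitive replicate 2 (0.68, adjusted p = 0.0188). The ratio of ATG14 to UVRAG within a library was 0.662 to 0.983 in U87 sensitive and 1.13 to 1.25 in U87 resistant libraries, without overlap, and 0.329 to 1.01 and 0.943 to 2.42 in U118. AMBRA1, which links BECN1 to the cytoskeleton and to ubiquitin ligases, did not pass in either line, and its U118 value of 0.35 became 0.83 under median-ratio scaling (adjusted p = 0.00659).

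In the ULK initiation complex 1 gene, RB1CC1, was called. RB1CC1 (FIP200), the scaffold of the complex, was at 15.8, 12.2 and 17.7 TPM in U118 sensitive and 6.11, 5.46 and 6.40 TPM in U118 resistant libraries, with a log2 fold change of -1.20 ± 0.24 and an adjusted p of 0.00295. In U87 it was at 2.78, 9.66 and 3.46 TPM in sensitive libraries, of which replicate 2 was by far the highest, and at 3.98, 3.70 and 3.10 TPM in resistant libraries (adjusted p = 0.571). ULK1, the kinase itself, was at 17.2, 16.9 and 20.3 TPM in U87 sensitive and 19.8, 17.2 and 18.5 TPM in U87 resistant libraries, overlapping groups with an adjusted p of 0.865. In U118 it was at 28.6, 27.0 and 22.3 TPM in sensitive and 21.3, 17.4 and 17.6 TPM in resistant libraries, lower without overlap, with a log2 fold change of -0.45 ± 0.22 (adjusted p = 0.112, and 0.0227 without resistant replicate 1), and 0.05 under median-ratio scaling. ATG13, the subunit that mTORC1 phosphorylates to hold the complex back, rose in U87 from 85.4 ± 12 to 114 ± 6.99 TPM (0.42 ± 0.12, adjusted p = 0.0284, and 0.086 and 0.0922 without resistant replicates 1 and 3). That p was 0.0696 with no filter on low values and 0.0504 with no trend in the limma fit. In U118 ATG13 was at 66.0 ± 9.74 and 102 ± 20.8 TPM (0.61 ± 0.23, adjusted p = 0.0528), and 1.12 under median-ratio scaling with an adjusted p of 0.00132. It also passed without mitochondrially encoded genes (0.81, adjusted p = 0.00551) and without U118 resistant replicate 2 (0.79, adjusted p = 0.0379). ATG101, its binding partner, fell in U87 from 115 ± 2.84 to 97.6 ± 0.165 TPM (-0.23 ± 0.06, adjusted p = 0.0271), a difference of 0.05 after rescaling. It lost its threshold when any 1 of the 6 libraries was left out (adjusted p 0.0531 to 0.0796). In U118 it was at 0.28 and, with median ratios, past the test at 0.79 (adjusted p = 0.0431).

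Of the genes for membrane supply and for reading phosphatidylinositol 3-phosphate, WIPI1 rose in both lines. WIPI1, a protein that binds this lipid on the early membrane, went from 44.0 ± 1.35 to 70.8 ± 2.81 TPM in U87, 1.61-fold, with a log2 fold change of 0.67 ± 0.08 and an adjusted p of 0.000823, which ranged from 0.00214 to 0.00662 with each library left out. In U118 it went from 40.4 ± 3.02 TPM to 103, 55.9 and 67.7 TPM, a mean of 75.6 ± 24.6 TPM, with a log2 fold change of 0.84 ± 0.26 and an adjusted p of 0.0219. Without any 1 of the U118 sensitive libraries or without resistant replicate 3 that p was 0.0531 to 0.0802. ATG9A, a membrane protein whose vesicles seed the autophagosome, was at 63.1, 77.1 and 69.2 TPM in U118 sensitive and 42.0, 44.6 and 48.0 TPM in U118 resistant libraries (-0.62 ± 0.20, adjusted p = 0.0258). Rescaled by median ratios, this fall was -0.11 (adjusted p = 0.705). The threshold was also missed without U118 sensitive replicates 1 or 2 or resistant replicates 2 or 3 (adjusted p 0.0738 to 0.123). In U87, ATG9A was at 61.3, 48.4 and 54.5 TPM in sensitive and 55.0, 54.7 and 58.0 TPM in resistant libraries, overlapping groups. The lipid transfer proteins ATG2A and ATG2B and the second reader WIPI2 passed no test as deposited in either line, with log2 fold changes between -0.45 and 0.36. ATG2A rose in U118 under median-ratio scaling (0.85, adjusted p = 0.0187). Without U118 resistant replicate 1, ATG2A rose (0.44) and ATG2B and WIPI2 fell (-0.49 and -0.63), with adjusted p-values of 0.0358, 0.0343 and 0.0168.

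The ATG12 conjugation system forms the ligase that places ATG8 proteins on lipid, and its subunit ATG16L1 went opposite ways in the lines. It was at 31.1, 23.6 and 24.5 TPM in U87 sensitive and 41.2, 33.1 and 38.2 TPM in U87 resistant libraries, a rise with no overlap (0.49 ± 0.14, adjusted p = 0.03). In U118 it was at 40.0, 36.8 and 27.8 TPM in sensitive and 25.9, 11.9 and 16.4 TPM in resistant libraries, a fall with no overlap (-0.97 ± 0.30, adjusted p = 0.0247). Each value lost its threshold in some subsets: the U87 rise without sensitive replicates 2 or 3 or resistant replicates 1 or 3 (adjusted p 0.0618 to 0.0989), and the U118 fall without sensitive replicates 1 or 2 or resistant replicates 2 or 3 (0.0693 to 0.0884). Under median-ratio scaling the U118 value was -0.47 (adjusted p = 0.0805), and without U118 resistant replicate 1 it passed the call at -1.25. ATG7, the activating enzyme shared by both conjugation systems, fell in both lines, from 38.8 ± 3.08 to 29 ± 2.59 TPM in U87 (-0.41 ± 0.11, adjusted p = 0.0235) and from 55.5 ± 2.14 to 35.6 ± 9.08 TPM in U118 (-0.65 ± 0.23, adjusted p = 0.0389). Neither fall of ATG7 passed under median-ratio scaling (-0.14 and -0.15), and 4 of the 6 U87 and 5 of the 6 U118 subsets with 1 library left out lost it (adjusted p up to 0.0861 and 0.154). ATG5, ATG10 and ATG12, which complete the system, passed no test as deposited in either line, with log2 fold changes from -0.55 (ATG5 in U87) to 0.11 (ATG12 in U87). Without U118 resistant replicate 1, ATG10 was at -0.74 (adjusted p = 0.0219) and ATG12 at -0.48 (adjusted p = 0.0385) in U118. ATG5 was past the test in U118 with median ratios (0.49, adjusted p = 0.0486) and in U87 without sensitive replicate 1 (-0.85, adjusted p = 0.0253).

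The remaining genes act on the ATG8 proteins themselves. ATG3, the enzyme that transfers ATG8 to lipid, fell in U87 from 76.9 ± 18.8 to 42.6 ± 4.11 TPM, to 0.553 of the sensitive mean (-0.81 ± 0.18, adjusted p = 0.0122). The fall held when libraries were rescaled (-0.54, adjusted p = 0.0226). It passed with each library left out (adjusted p 0.00335 to 0.0479). In U118, ATG3 was at 109.8 ± 4.45 TPM in sensitive and 117, 65.2 and 73.4 TPM in resistant libraries, which overlapped (-0.41 ± 0.25, adjusted p = 0.193, and -0.66 with an adjusted p of 0.00548 without resistant replicate 1). The ATG4 proteases cut ATG8 precursors and release ATG8 from lipid, and 2 of the 4 changed. ATG4C was at 8.72, 7.15 and 10.9 TPM in U118 sensitive and 3.73, 2.70 and 2.90 TPM in U118 resistant libraries, with no overlap and a log2 fold change of -1.26 ± 0.25 (adjusted p = 0.00277). In U87 the same gene was at 2.51, 5.18 and 3.29 TPM in sensitive and 4.26, 3.33 and 3.10 TPM in resistant libraries, which overlapped (adjusted p = 0.996). ATG4D was at 32.8, 23.7 and 26.1 TPM in U87 sensitive and 17.8, 19.8 and 17.3 TPM in U87 resistant libraries, a fall of -0.55 ± 0.14 (adjusted p = 0.021) that was not past the test under median-ratio scaling (-0.29, adjusted p = 0.271) or without U87 sensitive replicate 3 or resistant replicates 1 or 3 (adjusted p 0.0547 to 0.0748). In U118 it was at 25.9, 27.6 and 19.0 TPM in sensitive and 27.5, 32.6 and 36.5 TPM in resistant libraries, overlapping groups (0.41 ± 0.23, adjusted p = 0.169). That value was 0.91 with median ratios (adjusted p = 0.021), 0.60 without mitochondrially encoded genes (adjusted p = 0.0489) and 0.51 without resistant replicate 1 (adjusted p = 0.0491). ATG4B, the most active of the proteases, had means of 50.5 to 54.1 TPM in U87 and 68.9 to 80.9 TPM in U118, and with ATG4A it passed no test.

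The difference between the lines was tested itself, as an interaction over all 12 libraries, and 11 of the 34 genes passed an adjusted p under 0.05, beside 38.1% of 16382 genes. The change was higher in U118 than in U87 for TFEB by 1.78 ± 0.27 (adjusted p = 0.000204), OPTN by 1.74 ± 0.28 (0.000347), SQSTM1 by 1.10 ± 0.40 (0.0467), GABARAPL2 by 1.08 ± 0.27 (0.00749), ATG4D by 0.96 ± 0.26 (0.0122) and GABARAP by 0.65 ± 0.21 (0.0305), all on the log2 scale. It was lower in U118 for UVRAG (-1.78 ± 0.28, adjusted p = 0.000324), ATG16L1 (-1.46 ± 0.35, 0.00555), ATG4C (-1.27 ± 0.34, 0.0105), NBR1 (-1.26 ± 0.41, 0.0285) and ATG9A (-0.66 ± 0.19, 0.0179). PIK3R4 and RB1CC1, called in U118 alone, were not shown to differ between the lines (adjusted p = 0.366 and 0.141). With 1 library left out the differences of TFEB, OPTN, UVRAG, GABARAPL2, ATG16L1, ATG4C and ATG4D passed in every subset, with adjusted p-values of at most 0.0373. The number passing fell to 7 without U118 sensitive replicate 2 and rose to 16 without U118 resistant replicate 1. The share of all genes passing was not counted in these subsets. SQSTM1 lost the threshold in most subsets: without any 1 U87 sensitive library, or replicate 2 or 3 of the other groups (adjusted p 0.0623 to 0.115). It also lost it with a pseudocount of 0.1 (0.0522), no filter (0.11), a mean of at least 10 TPM (0.0503) and no trend (0.0519). NBR1 also lost it in most subsets (0.0547 to 0.0709) and with no filter (0.0697). GABARAP lost it in several subsets (0.0577 to 0.0856), and ATG9A without U118 sensitive replicate 2 (0.0588). Under median-ratio scaling ATG9A (adjusted p = 0.213) and GABARAP (0.0568) were lost and ATG3 was gained (0.0348).

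The levels of the genes in U118 resistant cells were also set against both sensitive lines. The lines' tables were made separately, so levels across them are a description. Of the 34 genes, 26 had a mean log2(TPM + 1) in U118 resistant cells nearer to that of U87 sensitive than of U118 sensitive cells, beside 65.6% of 16382 genes, with 22 beside 60.4% under median-ratio scaling and 28 beside 67.8% without U118 resistant replicate 1. Of the 11 genes at least 1 log2 unit apart between the sensitive lines (ATG4C, ATG14, PIK3C3, UVRAG, RB1CC1, GABARAPL1, GABARAPL2, SQSTM1, NBR1, OPTN and TFEB), 11 were nearer U87, beside 74.4% of 6054 such genes. GABARAPL2 at 195 TPM in U87 sensitive, 57.4 in U118 sensitive and 131 in U118 resistant cells, and UVRAG at 6.77, 21.9 and 5.44 TPM, show the pattern. OPTN went past the U87 sensitive mean of 34.2 TPM to 69.4 TPM, so that its distance from U87 sensitive cells was 1.01 log2 units before and after.

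**Figure D4:**
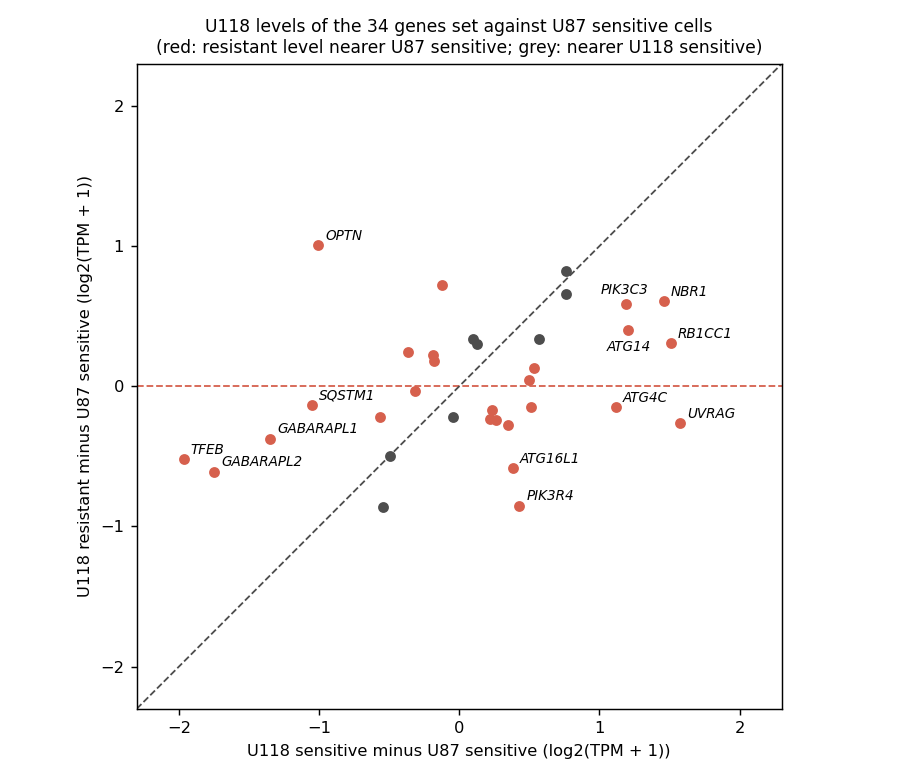
Mean log2(TPM + 1) of the 34 tested genes in U118 sensitive (x axis) and U118 resistant cells (y axis), both minus the mean in U87 sensitive cells; points on the diagonal did not differ between the U118 groups, and points on the dashed horizontal line lay at the U87 sensitive level. The 26 red points were nearer the U87 sensitive level and OPTN lies above the horizontal line at 1.01.

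Other genes of the pathway were followed in 6 lists with 87 genes in all. In U87, 4 were called higher and 2 lower of 80 tested, beside 3.03% and 7.79% of all genes. In U118, 4 were called higher and 16 lower of 83, beside 8.64% and 26.6%. Median-ratio scaling turned the U118 split to 16 higher and 4 lower of 82, beside 14.7% and 13.7% of all genes. It gave 7 higher and 0 lower in U87, beside 4.97% and 3.81%, so the direction of these counts depends on the scaling. At an unadjusted p under 0.05, 11.8% of all genes were higher and 36.7% lower in U87, and 13.7% and 44.4% in U118, beside which the unadjusted counts of the lists below can be read. Of 12 further core genes tested, 1 was called lower in U87, RUBCN (Rubicon, a UVRAG-binding inhibitor; 31.5 ± 3.93 to 12.9 ± 1.91 TPM, log2 fold change -1.22, adjusted p = 0.00103), and 2 in U118, EI24 (-1.32) and WDFY3 (-1.30), an adaptor for protein aggregates. Of 15 further receptors, 1 was called lower in U87, TEX264 (-1.13), a receptor for the endoplasmic reticulum, and 5 in U118, led by the mitophagy receptors BNIP3L (-1.54, adjusted p = 0.00293) and FUNDC1 (-1.10) and the p62-like receptor TAX1BP1 (-1.08). Neither list had a gene called higher by limma in either line, while 1 core gene and 2 receptors were higher at an unadjusted p under 0.05 in U87, and 1 and 2 in U118.

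Upstream, 2 inhibitors of mTORC1 signalling that respond to stress were called higher in both lines. DDIT4 (REDD1) went from 17.9 ± 1.06 to 50.5 ± 1.23 TPM in U87 (log2 fold change 1.45, adjusted p = 0.000107). In U118 it went from 21.1 ± 8.19 to 82.2 ± 39.2 TPM (1.90, adjusted p = 0.00347). SESN2 (sestrin 2) rose by 1.22 in U87 and 1.17 in U118 on the log2 scale. The 4 genes of this list called lower in U118 included MLST8 (-1.74), a subunit of the mTOR complexes, and PRKAA1 (-1.49), a catalytic subunit of AMP-activated kinase. None was called lower in U87 by limma, with 3 at an unadjusted p under 0.05. Of the genes for fusion with lysosomes, none of 13 was called in U87, with 1 higher and 7 lower at an unadjusted p under 0.05. In U118, VAMP8, the SNARE on the lysosome side, was called higher (0.271 ± 0.240 to 1.93 ± 0.810 TPM, 1.19), and EPG5 (-1.49), a tether, and VPS16 (-1.14), a HOPS subunit, lower. VAMP8 lay under 1 TPM in the sensitive libraries, so it entered the test only through the resistant libraries, where it was high. Of 8 further transcription regulators none was called in U87, with 4 lower at an unadjusted p under 0.05. In U118, 3 were called lower, ZKSCAN3 (-1.53), a repressor of autophagy genes, FLCN (-1.13), which keeps TFEB out of the nucleus when amino acids are plentiful, and FOXO3 (-1.06). Of 16 lysosomal genes of the CLEAR network, which TFEB is known to drive, 2 were called higher in U87, the cathepsins CTSF (1.21) and CTSB (1.14). In U118, 1 was called higher, CTSF, from 0.384 ± 0.0905 to 8.20 ± 1.26 TPM (2.73, adjusted p = 1.11e-05), likewise tested only through its resistant libraries. None was called lower in either line, with 4 lower in U87 and 1 in U118 at an unadjusted p under 0.05.

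Since TFEB rose in U118 and binds the CLEAR element, whose core is CACGTG, the promoters of the genes were searched for it on both strands. The windows run from 250 bases before to 50 after the start site (RefSeq, GRCh38.p14), and 31 of the 35 genes had one, with ATG4D, RB1CC1, MAP1LC3A and UVRAG without. CACGTG stood in 2 of the 31 genes, beside 8.77% of 27305 genes, in ATG3 beginning at -18 and at 5 from the start site, and in ATG14 at -21. With GT before it and AC after it, the core stood in none of the 31 and in 0.421% of all genes. Both promoters with the core are shown 5′ to 3′ with CACGTG in capitals, on the minus strand at chr3:112561913-112562212 and chr14:55411781-55412080. ATG3 fell in U87, and the values of ATG14, given above, did not pass the test as deposited in either line.
ATG3: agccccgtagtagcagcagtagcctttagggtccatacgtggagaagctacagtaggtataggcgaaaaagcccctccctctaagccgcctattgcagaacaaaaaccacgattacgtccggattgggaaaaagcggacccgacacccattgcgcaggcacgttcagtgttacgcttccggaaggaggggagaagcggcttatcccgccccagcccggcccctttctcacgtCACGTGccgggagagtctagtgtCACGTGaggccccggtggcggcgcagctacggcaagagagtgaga
ATG14: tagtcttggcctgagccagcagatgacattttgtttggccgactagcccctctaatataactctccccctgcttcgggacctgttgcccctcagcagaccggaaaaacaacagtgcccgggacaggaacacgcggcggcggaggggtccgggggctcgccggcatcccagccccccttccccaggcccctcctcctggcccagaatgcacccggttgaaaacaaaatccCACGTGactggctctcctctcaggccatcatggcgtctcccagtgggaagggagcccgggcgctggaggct

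OPTN and GABARAPL2, called higher in U118 as TFEB was, held no CACGTG in their windows. They are shown for comparison, as the receptor and the ATG8 gene called higher. The search took exact matches within these windows alone. Sites elsewhere were not searched, and whether TFEB acts on any of the genes was not tested. The first of the 2 windows of OPTN is on the plus strand at chr10:13099832-13100131, and that of GABARAPL2 is on the plus strand at chr16:75566129-75566428.
OPTN: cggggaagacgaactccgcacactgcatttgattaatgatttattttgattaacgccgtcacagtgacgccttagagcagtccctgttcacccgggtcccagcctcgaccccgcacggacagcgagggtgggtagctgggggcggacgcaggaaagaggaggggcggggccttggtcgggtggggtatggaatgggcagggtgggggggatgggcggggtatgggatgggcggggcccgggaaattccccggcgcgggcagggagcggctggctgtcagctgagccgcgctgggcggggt
GABARAPL2: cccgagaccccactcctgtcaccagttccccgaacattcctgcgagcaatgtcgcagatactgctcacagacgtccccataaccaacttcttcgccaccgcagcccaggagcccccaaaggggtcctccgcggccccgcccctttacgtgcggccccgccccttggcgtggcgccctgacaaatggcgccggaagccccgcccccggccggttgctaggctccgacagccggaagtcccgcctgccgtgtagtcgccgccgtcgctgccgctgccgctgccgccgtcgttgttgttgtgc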

How the data were processed

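RNA libraries of 12 samples, 3 in each of 4 groups taken from the sample titles, were made with an mRNA-seq kit. The authors deposited TPM values per gene in 1 table for each cell line. The submitters' processing notes name FastQC 0.11.2, Trimmomatic 0.36, HISAT2 2.0, bedtools 2.26.0 and GRCh38; the quantifier and whether strand was used are not given in the sources used here. Without strand, reads of overlapping genes cannot be told apart, and 16 of the 35 genes overlap another protein-coding gene in GENCODE release 29. TPM holds no read counts, so precision rests on the spread between libraries alone.

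For the tests, log2(TPM + 1) was modelled by limma 3.58.1 (R 4.3.3; lmFit, then eBayes with a trend). Genes that reached 1 TPM in 3 or more libraries entered, in each line and, for the difference between the lines, over all 12 libraries. The p-values were adjusted by Benjamini-Hochberg over all genes tested, and a call needed 0.05 and a log2 fold change of 1. An exact permutation test of 3 against 3 cannot go below a two-sided p of 0.1, so none was used. The fit was tested on simulated data. Python 3.11.15 with pandas 2.3.3 and matplotlib 3.10.9 made the tables and figures.

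The 35 genes and the pathway lists were chosen with earlier results of these data known. All 35 are named, with values in every library for genes called, for genes whose change differed between the lines, and for ULK1, BECN1, MAP1LC3B, SQSTM1 and TFEB. Of other genes, at most 3 called per list and line are named, except that SESN2 in U118 was named beyond that limit. Alternatives were median-ratio scaling, TPM without mitochondrially encoded genes, a pseudocount of 0.1, no filter or a minimum mean of 10 TPM, a replicate block, no trend in eBayes, and leaving out each library. Ratios between genes, median-ratio scaling of levels over 12 libraries, and the setting of levels without U118 resistant replicate 1 were added after the values were seen. ATG8 proteins were not analysed here.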

Additional observations from a re-analysis of the deposited data

Results flagged for a closer look

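For 11 of the 34 genes the change with resistance differed between the lines by the test of the difference itself (limma interaction over 12 libraries, adjusted over 16382 genes), beside 38.1% of all genes. In the first group of genes the difference, U118 minus U87 on the log2 scale, was positive: TFEB 1.78 (-0.33 in U87 and 1.45 in U118), OPTN 1.74, SQSTM1 1.10, GABARAPL2 1.08, ATG4D 0.96 and GABARAP 0.65. UVRAG at -1.78, ATG16L1 at -1.46, ATG4C at -1.27, NBR1 at -1.26 and ATG9A at -0.66 had a negative difference. The differences of SQSTM1, NBR1, GABARAP and ATG9A lost the threshold in subsets and settings given above, SQSTM1 and NBR1 in most subsets. ATG16L1 was the gene whose 2 changes passed the test of their own line in opposite directions, 0.49 in U87 and -0.97 in U118, where every U87 resistant library was above and every U118 resistant library below its sensitive ones. The U118 resistant libraries were nearer to U87 than to U118 sensitive libraries in overall profile, as described above, and the part of this in the differences was not tested.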

How the results depend on the processing

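OPTN, TFEB, GABARAPL2, UVRAG, PIK3R4, ATG4C and RB1CC1 kept their direction and an adjusted p under 0.05 in U118 under every alternative that tested them. A mean of at least 10 TPM left out TFEB and ATG4C. Of these genes, OPTN, TFEB and UVRAG also kept the call. PIK3R4, ATG4C and RB1CC1 fell under its fold with median-ratio scaling, and GABARAPL2 without U118 resistant replicate 1. Median-ratio scaling moved most counts: in U87, genes past the adjusted p became 6 higher and 2 lower; in U118, calls became 7 higher and 1 lower, and genes past the adjusted p 13 higher and 4 lower. In the pathway lists it gave, for U87, 0 core genes called lower, 1 receptor called higher and 0 lower and 4 nutrient genes called higher; for U118, it gave 1 core gene higher and 0 lower, 3 receptors higher and 1 lower, 5 nutrient genes higher and 1 lower, 2 fusion genes higher and 1 lower, 1 transcription regulator higher and 1 lower, and 4 lysosomal genes higher. Of all genes tested, this scaling called 4.97% higher and 3.81% lower in U87, and 14.7% and 13.7% in U118. By its own construction this scaling brings the median of all genes near 0 (-4.71e-05 in U87, -0.0617 in U118). Without mitochondrially encoded genes, 2 genes were past the adjusted p as lower in U87 and 6 were called higher in U118. In that setting the U87 falls of GABARAP (adjusted p = 0.105), ATG7 (0.111), ATG4D (0.0704) and ATG101 (0.366) did not pass. Nor did the U118 falls of ATG7 (0.0641) and ATG9A (0.0984). Outside median-ratio scaling, the share of all genes called was not counted under the alternatives. With no filter on low values, 1 gene rose past the adjusted p in U87. The U87 changes of ATG13, ATG16L1, GABARAP and PIK3R4 missed it there (0.0565 to 0.0781). In U118, those of ATG7, ATG16L1, SQSTM1 and WIPI1 missed it (0.0558 to 0.0719). The median lay at -0.00649 (U87) and -0.163 (U118) from that of every gene detected in any library. ULK2 then entered the U118 and difference fits, so counts and medians there covered 35 genes. The cause of the shift in the medians was not tested.

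With each library left out in turn, U87 calls of lower genes ranged from 0 to 2, genes past the adjusted p from 1 to 4 higher and 1 to 5 lower. U118 calls ranged from 2 to 5 higher and 4 to 7 lower, and genes past the adjusted p as lower from 4 to 17. Both counts of lower genes, 7 and 17, were highest without resistant replicate 1. Genes that differed between the lines ranged from 7 to 16. The share of all genes was not counted in these subsets, so these ranges are not results about these genes in particular. The sensitive and resistant libraries share replicate numbers, but correlations of same-numbered deviations were 0.0113, -0.0671 and -0.0399 in U87 and 0.139, 0.0512 and 0.0953 in U118, so the numbers were not taken to pair samples; in U118 every sensitive library correlated best with its own number, a hint from the data alone. With the replicate block, 3 genes were lower past the adjusted p in U87 instead of 6, NBR1 (adjusted p = 0.0113) and ATG14 (0.0293) passed in U118, and the counts of calls were the same.

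The sign of small changes turned with the setting. Median-ratio scaling gave, in U87, log2 fold changes of 0.21 for ATG2B, 0.18 for ATG4B, 0.00565 for ATG10, 0.0471 for ATG101, 0.18 for UVRAG, 0.24 for AMBRA1, 0.22 for WIPI2, 0.16 for MAP1LC3A, 0.0326 for MAP1LC3B and 0.0999 for SQSTM1, and in U118, 0.0497 for ULK1, 0.00563 for ATG2B, 0.10 for ATG3, 0.28 for ATG4B, 0.40 for ATG12, 0.33 for BECN1, 0.0587 for WIPI2 and 0.14 for MAP1LC3A, and a difference of 0.0568 for ATG4B. Without mitochondrially encoded genes the U87 values were 0.0990 for ATG2B, 0.0391 for ATG4B, 0.0614 for UVRAG, 0.10 for AMBRA1, 0.0762 for WIPI2 and 0.0358 for MAP1LC3A, and the U118 values 0.0911 for ATG12 and 0.0201 for BECN1; a pseudocount of 0.1 gave -0.00237 for ATG5 in U118.

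Leaving out each library gave ranges across 0 in U87 for AMBRA1 (-0.15 to 0.0690), ATG12 (-0.0170 to 0.36), ATG2B (-0.25 to 0.21), ATG4C (-0.18 to 0.23), ATG9A (-0.0475 to 0.12), BECN1 (-0.0527 to 0.12), MAP1LC3A (-0.23 to 0.00974), PIK3C3 (-0.12 to 0.50), RB1CC1 (-0.59 to 0.16), SQSTM1 (-0.55 to 0.0233), ULK1 (-0.0170 to 0.11) and UVRAG (-0.23 to 0.0551), and in U118 for ATG12 (-0.48 to 0.13), ATG4A (-0.24 to 0.40), ATG5 (-0.30 to 0.15), BECN1 (-0.55 to 0.0889) and MAP1LC3B (-0.16 to 0.22). For differences between the lines this held for ATG12 (-0.59 to 0.0204), BECN1 (-0.60 to 0.0421), GABARAPL1 (-0.51 to 0.42) and WIPI1 (-0.0747 to 0.36). Among the changes and differences whose sign turned, ATG101 in U87 was the one past the test as deposited. TPM gives no depth, so limits of detection could not be set.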
